A study of Mus musculus with 3 samples.

Results

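The cells described here are 378 barcodes from mouse skin wounds that carried the most mRNA of Cd209a, Klrd1, Cd7, H2-Oa, Klrb1b and Flt3, a set of genes that marks Cd209a dendritic cells. They were taken from 2702 barcodes with at least 200 detected genes, at least 2000 unique molecular identifiers (UMIs, each standing for 1 captured mRNA molecule) and a mitochondrial share of UMIs below 10%. Each barcode was scored by the mean of ln(1 + UMIs per 10000) over the 6 genes, and the highest 14% over all days became the members. The other 2324 barcodes are called the rest. Since the members were chosen by the measured levels of those 6 genes, these levels are given as a description and support nothing.

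Dendritic cells take up antigen in tissues such as the skin, load peptides onto MHC class II proteins and carry them to lymph nodes, where they prime T cells. Cells of the conventional type 2 branch depend on the growth factor receptor Flt3 and the transcription factor Irf4, and in the mouse many of them display the lectins Cd209a and Mgl2. Wounds also recruit monocytes that can acquire dendritic cell genes, and mRNA alone does not fix the origin of a cell.

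The members came from male C57BL6/J mice, a common inbred laboratory strain, whose skin had been wounded 3, 6 or 10 days before. Each day is 1 droplet (10x Chromium) library of enzymatically dispersed wound cells pooled from 2 mice, and all animals were of the wild-type strain, with no treatment other than injury in the labels. The isolation aimed at monocytes and macrophages, so the members were drawn only from cells that this isolation let through. Their share is not that of all dendritic cells of a wound. With 1 library per day there is no replicate check of any difference between days, no test was run, and every interval covers counting error only.

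Members made up 12.2% of the 879 eligible barcodes on day 3 (107 barcodes, 95% Clopper-Pearson interval 10.1 to 14.52%), 19.4% of 551 on day 6 (107 barcodes, 16.2 to 22.97%) and 12.9% of 1272 on day 10 (164 barcodes, 11.1 to 14.9%). Among eligible barcodes the share was therefore higher on day 6 than on either other day beyond counting error. The mitochondrial limit had left out a further 379, 437 and 411 barcodes with at least 2000 UMIs on days 3, 6 and 10. The shares thus hold only for barcodes under this limit. With a limit of 20% and members chosen anew, they were 12.2%, 18.9% and 12.9%. Members were deeper than the rest. Their median was 16099, 18291 and 14409 UMIs on days 3, 6 and 10, against 10151.5, 11020.5 and 8099 UMIs in the rest. Mitochondrial UMIs had a median share of 2.94%, 2.67% and 2.20% in members, against 4.04%, 4.03% and 3.34% in the rest. Summed over barcodes, the members held 1777956, 1903172 and 2364199 UMIs, and levels below are counts of a gene per 1000000 of these UMIs (CPM), given for days 3, 6 and 10 in that order. Days 6 and 10 shared 2 barcode sequences, neither of a member, and the other pairs of libraries shared 0. Scrublet called 4 eligible barcodes doublets, of which 1 was a member, and they were kept.

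**Figure D1:**
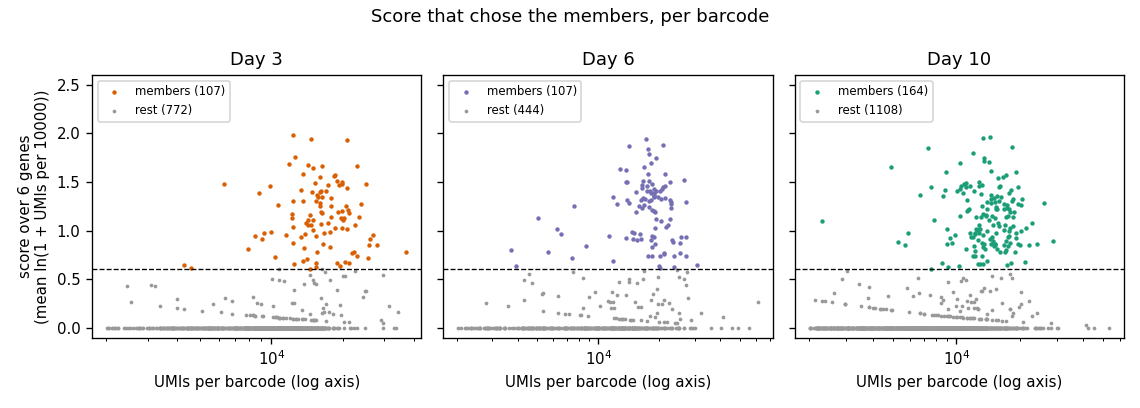
Score over the 6 genes for every eligible barcode (vertical axis, mean of ln(1 + UMIs per 10000)) against its UMIs (log axis), with 1 panel per day; coloured points are members, grey points the rest, and the dashed line is the lowest member score, 0.605. Most of the rest lies at a score of 0, and the gap above the line is thin, with 28 barcodes less than 0.1 above it and 26 less than 0.1 below it.

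Of the 2702 eligible barcodes, 75.3% had none of the 6 genes and a score of 0. The lowest member scored 0.605 and the highest barcode outside 0.603. The 10 barcodes just inside the limit had a median of 3 detected genes of the 6, and the 10 just outside a median of 2. Members had between 2 and 6 of the genes, with 85 carrying all 6, 136 carrying 5 and 16 carrying 2. In the rest, 2034 barcodes carried none and 1 carried 5.

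Cd209a, a C-type lectin on chromosome 8, gave 1619, 922 and 1414 CPM in members, against 37.7, 29.3 and 18.1 CPM in the rest. Klrd1 encodes CD94, a lectin-like receptor chain best known from natural killer cells, and had 523, 552 and 548 CPM in members, against 4.27, 6.04 and 6.54 CPM in the rest. The related Klrb1b had 252, 321 and 182 CPM in members, against 9.43, 25.1 and 7.27 CPM in the rest. For Cd7, an immunoglobulin-family surface protein otherwise typical of T and natural killer cells, the values were 231, 120.3 and 161 CPM in members, against 0.754, 2.26 and 0.623 CPM in the rest. H2-Oa, a chain of the H2-O protein that restrains peptide loading by H2-DM, gave 112, 231 and 162 CPM in members, against 0.377, 6.98 and 1.14 CPM in the rest. Flt3, the receptor through which dendritic cells and their precursors are maintained, had 79.9, 175 and 105 CPM in members, against 6.92, 9.25 and 3.74 CPM in the rest. All 6 were higher in members on each day, as the choice of members requires. Among the members themselves the days differed: Cd209a was lowest on day 6, whereas H2-Oa, Klrb1b and Flt3 were highest then.

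All eligible barcodes were also clustered after the 6 genes that chose the members had been removed. Those genes and the marker lists were chosen with earlier results of these data known, and genes that vary with the 6 stayed in. The clusters are therefore a description and not an independent check. Of 14 clusters, 1 held 359 of the 378 members together with 74 other barcodes, and was led by Ffar2, Ddr1, Gpr171, Cd209d and Clec10a. A second dendritic-cell-like cluster of 21 barcodes, led by Fscn1, Ccl22, Ccl17 and Ccr7, genes of mature dendritic cells that leave tissue, held 4 members. Together these 2 clusters took in 96.0% of the members (95% interval 93.5 to 97.8%) and 3.92% of the rest. Of the other 15 members, 6 lay in a cluster led by cell cycle genes such as Ccna2, 4 in one led by Areg, Ddit4, Nr4a2 and Fosb, and 5 in clusters led by Ccl12 and Ly6c2, by S100a9 and Chil3, or by Retnla and Lyz1. The rest was a different mix of clusters on each day. The cluster led by Ccl12 and Ly6c2 held 299, 24 and 36 of its barcodes on days 3, 6 and 10. One led by Rsad2 and Cxcl10 held 236, 22 and 5, and one led by Saa3 and Mt2 held 0, 10 and 234.

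Many markers of conventional dendritic cells outside the rule were higher in members. The contrast is the one that chose the members, and the lists were made with earlier results of these data known. The counts below are therefore a description and do not settle the kind of cell. Of the 8 shared dendritic cell markers with enough counts on each day, 7 were at least 2-fold higher in members on every day, against 2.87% of the 7811 genes counted. Itgax, the integrin chain CD11c, was the one that was not, with 72.0, 125 and 77.0 CPM in members, against 11.2, 81.3 and 26.6 CPM in the rest. Zbtb46, a transcription factor of the conventional lineage, gave 17.4, 24.2 and 15.2 CPM in members, against 0.754, 3.77 and 0.934 CPM in the rest. It is not particular to members: the 17 non-members of the cluster led by Fscn1 had 60.9 CPM of it, summed over days. Those 17, with 213408 UMIs in all, also had 108 CPM of Dpp4 and 206 CPM of Flt3, but 89.0 CPM of Ciita and 0 CPM of Cd209a. Bcl11a, needed for dendritic cell development, had 66.9, 90.9 and 94.7 CPM in members, against 7.17, 5.85 and 6.12 CPM in the rest. Of 9 markers of the type 2 branch, 5 were at least 2-fold higher on every day and 1, the integrin chain Itgam, was lower, against 2.87% and 9.18% of all genes. On days 3 and 6, 2 of the 9 were lower, against 15.1% and 17.6% of all genes. Irf4 was among the higher ones, with 30.9, 38.4 and 33.8 CPM in members, against 6.54, 17.6 and 7.78 CPM in the rest. Sirpa, Clec4a2 and Klf4 were not past 2-fold on every day. They had 1323, 779 and 1343 UMIs in members, and 8961, 5226 and 6695 in the larger rest.

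Markers of the other kinds of dendritic cell were mixed. Of 5 type 1 markers counted on every day, 0 were at least 2-fold higher in members and 1 lower. On day 10, 3 of 6 were higher, against 6.03% of all genes. Xcr1 and Clec9a, which define the type 1 branch, had 3 and 7 UMIs over all members. Batf3, a transcription factor that type 1 cells require, was present, with 42.7, 59.4 and 77.0 CPM in members, against 24.9, 32.5 and 28.0 CPM in the rest. Wdfy4, needed for cross-presentation by those cells, had 50.1, 78.3 and 63.9 CPM in members, against 27.3, 28.3 and 29.8 CPM in the rest. Irf8, the factor of that branch, gave 34.9, 45.2 and 47.0 CPM in members, against 97.1, 145 and 141 CPM in the rest. The Langerhans cell lectin Cd207 had 0 UMIs in members and 195 in the rest, whereas the adhesion gene Epcam, of the same list, had 1.12, 32.6 and 10.6 CPM in members, against 0, 16.6 and 4.98 CPM in the rest. Of 3 Langerhans cell markers counted on every day, 1, Cdh1, was at least 2-fold higher in members and 0 lower. Siglech, of plasmacytoid dendritic cells, had 7 UMIs in members and 22 in the larger rest. Of 3 plasmacytoid markers counted on every day, 1 was at least 2-fold higher in members and 0 lower. This was Smim5, with 205 UMIs in members and 99 in the rest. Spib, of the same list, had 42 and 6 UMIs. The 14 markers of mature, migrating cells summed to 843, 883 and 664 CPM in members, against 660.2, 669 and 409.7 CPM in the rest, with 0 of 8 counted genes past 2-fold on every day. Among them, Fscn1 gave 19 UMIs in members, 13 of them in 1 barcode of day 10, and 150 in the rest, and Ccr7 reached 42.7, 29.4 and 57.1 CPM in members, against 42.2, 48.7 and 6.85 CPM in the rest. Ccr7 was concentrated, with a UMI in 13, 9 and 5 members on days 3, 6 and 10.

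Klrd1, Klrb1b and Cd7 are also carried by natural killer cells, whose defining genes were therefore summed. Over the 12 natural killer and innate lymphoid markers the members summed to 57.4, 44.1 and 38.1 CPM, against 74.1, 218 and 132 CPM in the rest. 9 of them, counting Ncr1, Klrb1c, Nkg7, Gzma, Gzmb, Prf1 and Eomes, had 0 UMIs in all members, where a count of 0 allows up to 3 UMIs per library. In members the sum came from Il7r (210 UMIs), Klre1 (45 UMIs) and Rora (21 UMIs). In the rest it came mostly from Il7r (2503 UMIs) and Rora (402 UMIs). The 9 genes at 0 in members had only 0 to 37 UMIs each in the rest, so they set the groups little apart. Klre1 went the other way, with 10 UMIs in the larger rest. The 10 T cell markers summed to 0.562, 1.58 and 0.423 CPM in members, against 0.377, 2.45 and 3.53 CPM in the rest. Kit, the stem cell factor receptor used as a mast cell marker, had 37.1, 32.6 and 24.1 CPM in members, against 0.629, 1.89 and 0.415 CPM in the rest. The 17 non-members of the cluster led by Fscn1 had 51.5 CPM of it. Every other mast cell and basophil marker, Cpa3 and Fcer1a among them, had 0 UMIs in members and only 0 to 3 UMIs in the rest. Over the 17 macrophage markers the sum was 559.6, 625 and 539 CPM in members, against 7991, 20306 and 22356 CPM in the rest. The 11 classical monocyte markers summed to 2996, 1928 and 1667 CPM in members, against 10006, 3819.6 and 4738 CPM in the rest. On every day 6 of the 11 were at least 2-fold lower in members and 0 higher, against 9.18% and 2.87% of all genes. They did not all go 1 way, since 4 of 11 were at least 2-fold higher on day 6 and 1 on day 10. Over all genes these shares were 5.92% and 6.03%.

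**Figure D2:**
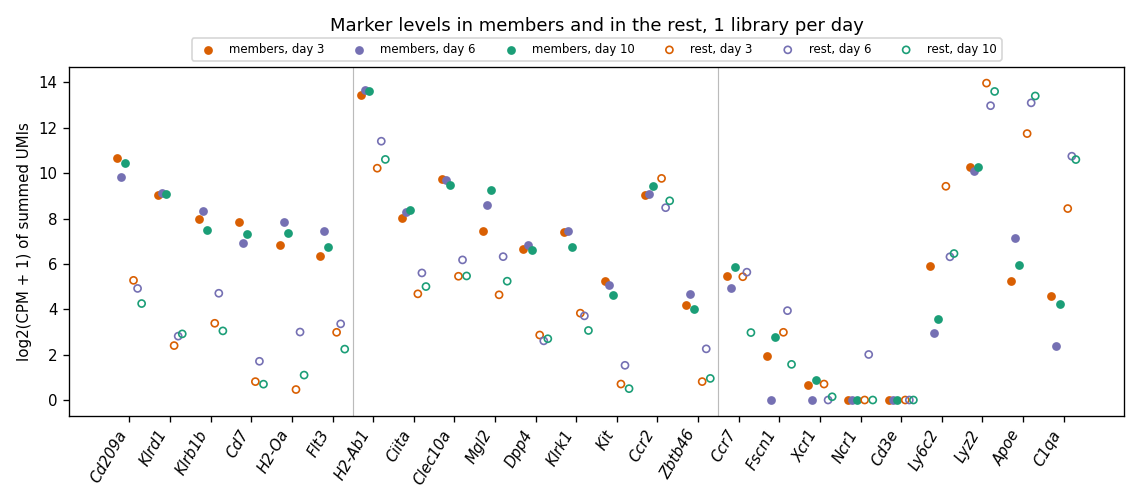
Level of 24 genes as log2(CPM + 1) of UMIs summed over members (filled points) and over the rest (open points), 1 library per day. The first grey line stands after the 6 genes of the rule and the second after Zbtb46. Genes between the lines include Klrk1, Kit and Ccr2, which other cells also carry. Genes after the second line include the dendritic cell markers Ccr7, Fscn1 and Xcr1 beside markers of other cells. Filled points stand above open ones for H2-Ab1, Ciita, Clec10a, Mgl2, Dpp4, Klrk1, Kit and Zbtb46 on each day, Ncr1 and Cd3e are at 0 in members, and Lyz2, Apoe and C1qa are lower in members.

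Set against the rest on every day, 224 of 7811 genes counted (2.87%) were at least 2-fold higher in members and 717 (9.18%) at least 2-fold lower. A gene was counted with at least 50 UMIs over both sides of a library, and a side under 3 UMIs was set to 3. Day by day, 6.96%, 5.92% and 6.03% of genes were higher and 15.1%, 17.6% and 18.7% lower on days 3, 6 and 10. The contrast is the one that chose the members, so these values describe them and no more.

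Members held the machinery of MHC class II presentation at high level. Of its 12 genes counted on every day, 9 were at least 2-fold higher in members on each of them and 0 were lower on each, against 2.87% and 9.18% of all genes. Over the 13, 12 and 14 genes counted on days 3, 6 and 10, the median log2 ratio was 2.95, 2.32 and 2.90, against -0.09, -0.16 and -0.15 over all genes. H2-Ab1, a beta chain of the peptide-presenting protein, had 11183, 13040.3 and 12777 CPM in members, against 1191, 2718 and 1557 CPM in the rest. H2-Aa, its alpha chain partner, had 10204, 12678 and 11889.9 CPM in members, against 1150.5, 2417 and 1346 CPM in the rest. The invariant chain Cd74, which guards the groove until peptide is loaded, gave 28348, 29957 and 33388 CPM in members, against 3665, 5815 and 4144 CPM in the rest. H2-DMb2, part of the H2-DM peptide exchanger, had 169, 214 and 133 CPM in members, against 7.29, 30.01 and 10.1 CPM in the rest, and H2-Ob, partner of H2-Oa, had 53.4, 73.0 and 55.4 CPM in members, against 1.76, 4.53 and 2.80 CPM in the rest. Ciita, the coactivator that switches on class II genes, had 258, 310.01 and 331 CPM in members, against 24.6, 47.6 and 31.0 CPM in the rest. Per barcode the groups overlapped little: the median of H2-Ab1 was 119, 129 and 129 UMIs per 10000 in members, and 0, 0.855 and 0.86 in the rest. Single barcodes of the rest still reached 195, 205 and 209. Whole groups of the rest held it too. Summed, H2-Ab1 had 10847 CPM in the 74 non-members that clustered with most members and 7403 CPM in 37 of the cluster led by Retnla. It had 6570 CPM in 17 non-members of the mature cluster and 6057 CPM in 18 of the cell cycle cluster. Non-members of the other clusters had between 39.0 and 3760 CPM. The protease gene Ctss, which trims the invariant chain, was lower in members, past 2-fold on day 6, with 1737, 1434 and 1637 CPM in members, against 2129.9, 3174 and 3007 CPM in the rest. Of 15 genes of MHC class I presentation counted on every day, 0 were past 2-fold on every day in either direction. On single days, 4 of 15 were higher on day 6 and 4 of 16 on day 10, against 5.92% and 6.03% of all genes, and 0 of 15 on day 3.

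Class II promoters share short sequence elements, called the X box and the Y box, through which the class II enhanceosome and Ciita act. Sequences of the last 120 bases before the start of 3 of these genes (RefSeq, GRCm38.p6, written 5′ to 3′ along the gene) are shown because they carry such letters, with matches in capitals; H2-Oa is a gene of the rule.
H2-Eb1 (chr17:34305747-34305866, plus strand): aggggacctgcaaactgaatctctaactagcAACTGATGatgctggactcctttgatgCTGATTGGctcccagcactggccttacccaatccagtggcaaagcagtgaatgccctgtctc
H2-Aa (chr17:34287824-34287943, minus strand): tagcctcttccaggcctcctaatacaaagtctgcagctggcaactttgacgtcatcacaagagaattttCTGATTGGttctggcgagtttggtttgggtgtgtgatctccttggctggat
H2-Oa (chr17:34092259-34092378, plus strand): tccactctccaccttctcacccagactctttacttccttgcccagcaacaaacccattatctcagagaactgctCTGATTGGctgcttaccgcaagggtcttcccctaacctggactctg
The capitals mark AACNGATG (core of the X box) and CTGATTGG (Y box). In H2-Eb1 the X box lay 89 to 82 bases and the Y box 62 to 55 bases before the start. The Y box of H2-Aa lay 51 to 44 bases and that of H2-Oa 46 to 39 bases before the start. Searched on both strands of windows from 250 bases before to 50 after the start, the Y box letters were in 4 of the 13 class II genes with an entry (H2-Oa included), or 30.8%, against 4.10% of 32851 promoters. The X box letters were in 5 of 13, or 38.5%, against 2.32% of promoters. A match is a description of the letters, not a shown site.

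Lectin receptors differed in both directions. Of 13 C-type lectins counted on every day, 4 were at least 2-fold higher in members and 4 lower, against 2.87% and 9.18% of all genes, and the median log2 ratio was -0.51. Clec10a, a galactose-type lectin of dendritic cells and macrophages, had 844, 827 and 717 CPM in members, against 42.9, 71.3 and 43.3 CPM in the rest, or 19.7, 11.6 and 16.6-fold more. Its neighbour on chromosome 11, Mgl2, had 177, 385 and 609.9 CPM in members, against 23.9, 78.9 and 36.7 CPM in the rest. Neither is particular to members: the 25 barcodes of a cluster led by C6, Cd209f, Cd209g and Lyve1, all in the rest, had 793 CPM of Clec10a and 589 CPM of Mgl2, and the 37 non-members of the cluster led by Retnla had 397 CPM of Mgl2. Cd209d, a paralog of Cd209a, gave 152, 124 and 143 CPM in members, against 1.89, 10.9 and 7.68 CPM in the rest. The killer-cell lectin-like receptor Klrk1 (NKG2D), an activating receptor outside the rule, had 170.4, 174 and 107 CPM in members, against 13.2, 12.1 and 7.37 CPM in the rest. Clec4e (Mincle), a receptor for microbial glycolipids, was among the lower ones, with 69.2, 44.1 and 22.4 CPM in members, against 853, 392 and 309 CPM in the rest. UMIs of near-identical Cd209, Clec4, Clec10a and Mgl2, or Klr copies can be split or lost in counting, and single values within these families are uncertain to that extent.

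The 15 genes with the largest ratio in their worst library were led by Ffar2, a receptor for short-chain fatty acids, which had 131, 161 and 99.0 CPM in members, against 4.40, 4.15 and 1.04 CPM in the rest. Ddr1, a collagen receptor kinase, had 88.3, 144 and 99.4 CPM in members, against 2.77, 7.17 and 3.53 CPM in the rest. Dpp4 (CD26), a surface peptidase, gave 100.1, 113 and 98.1 CPM in members, against 6.29, 5.10 and 5.501 CPM in the rest, and Kmo, an enzyme of tryptophan breakdown, 101, 87.2 and 79.9 CPM in members, against 6.04, 6.42 and 4.67 CPM in the rest. The G protein-coupled receptor Gpr171 had 226, 186 and 107 CPM in members, against 11.2, 12.6 and 6.33 CPM in the rest. P2ry10, a receptor for lysophospholipids, had 132, 127 and 69.4 CPM in members, against 9.68, 16.4 and 6.44 CPM in the rest. Il1r2, a decoy receptor that binds interleukin-1 without signalling, had 493, 338 and 313 CPM in members, against 50.9, 55.9 and 25.1 CPM in the rest. For Ifitm1, an interferon-induced membrane protein, the values were 4277, 2258 and 3003 CPM in members, against 746, 123 and 219.9 CPM in the rest, and Plscr1 gave 191, 199.7 and 103 CPM in members, against 20.7, 35.9 and 17.9 CPM in the rest. The genes were picked for these ratios, so the gap between members and rest restates the choice.

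Receptors and costimulators were mixed. Of 21 growth factor and cytokine receptors, 2 were at least 2-fold higher in members on every day, Kit and Il1r2, and 4 lower, against 2.87% and 9.18% of all genes. Csf1r, the macrophage growth factor receptor, was among the lower ones, with 111, 126 and 113 CPM in members, against 293, 419 and 487 CPM in the rest. Csf2ra, a chain of the GM-CSF receptor, was within 2-fold, with 202, 182 and 185 CPM in members, against 229, 183 and 161 CPM in the rest. Ccr2, through which cells enter inflamed tissue, had 530.4, 548 and 700.03 CPM in members, against 872, 356 and 439 CPM in the rest, so that members were below the rest on day 3 and above it on days 6 and 10. Cd86, a ligand of the T cell receptor CD28, gave 187, 195 and 163 CPM in members, against 168, 73.8 and 103 CPM in the rest. Tnfsf4 (OX40 ligand), another T cell costimulator, was low in absolute level but had 18.6, 31.5 and 22.4 CPM in members, against 0.503, 1.89 and 1.45 CPM in the rest. Cd274 (PD-L1), an inhibitory ligand, had 33.7, 23.1 and 13.96 CPM in members, against 78.5, 88.9 and 54.7 CPM in the rest. Among 21 dendritic cell transcription factors, 2 were at least 2-fold higher on every day, Irf4 and Bcl11a, and 6 lower, against the same shares of all genes. Cebpb, active in inflammatory myeloid cells, had 253, 367 and 136 CPM in members, against 3491, 1776 and 1682 CPM in the rest.

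Macrophage genes and many inflammatory genes were lower in members. Of 25 macrophage genes counted, 23 were at least 2-fold lower in members on every day, of 17 chemokines 12, of 16 cytokines 9, of 15 Fc receptor and phagocytosis genes 11 and of 24 hypoxia and glycolysis genes 14, against 9.18% of all genes. Of the neutrophil attractants, Cxcl3 had 2.81, 2.10 and 4.65 CPM in members, against 1423, 807 and 569 CPM in the rest. Cxcl2 was still present, with 179, 419 and 195 CPM in members, against 10448, 8537 and 10845 CPM in the rest, and had a UMI in 32, 35 and 64 members. Cxcl1 had 0, 1.58 and 5.499 CPM in members, against 188, 663 and 493 CPM in the rest. Slpi, a secreted protease inhibitor, had 6.75, 0 and 0.423 CPM in members, against 941, 213 and 205 CPM in the rest. Arg1, which breaks down arginine, gave 7.87, 3.15 and 52.9 CPM in members, against 1050.01, 1536 and 3629 CPM in the rest, and Pf4, a platelet-type chemokine also made by macrophages, 8.999, 8.41 and 9.73 CPM in members, against 795, 2409 and 3449 CPM in the rest. Thbs1, a matrix glycoprotein of clots and wounds, had 52.3, 4.204 and 19.0 CPM in members, against 3737, 1509 and 1634 CPM in the rest. The other members of the 10 lowest were Pdpn, Chil3, C5ar1 and Inhba, at least 64.0-fold lower in members on every day, with sides under 3 UMIs set to 3. Free RNA in droplets also leaves UMIs of such genes in cells that do not make them. In members, Apoe stood at 1.08%, 1.59% and 0.555% of its level in the rest, and Lyz2 at 7.79%, 13.6% and 9.98%; how much of either is free RNA was not tested.

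Not all inflammatory genes were low. Il1b, the secreted fever cytokine, had 2995, 882 and 1348 CPM in members, against 4243, 2046 and 2241 CPM in the rest, within 2-fold on days 3 and 10. Ccl4, a chemokine that attracts leukocytes, gave 1305, 1416 and 985 CPM in members, against 1871, 1016 and 484 CPM in the rest. Ltb, a lymphotoxin chain, had 46.1, 92.5 and 49.9 CPM in members, against 1.51, 6.42 and 1.76 CPM in the rest. Il12b, the shared chain of interleukins 12 and 23, had 0 UMIs in members.

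**Figure D3:**
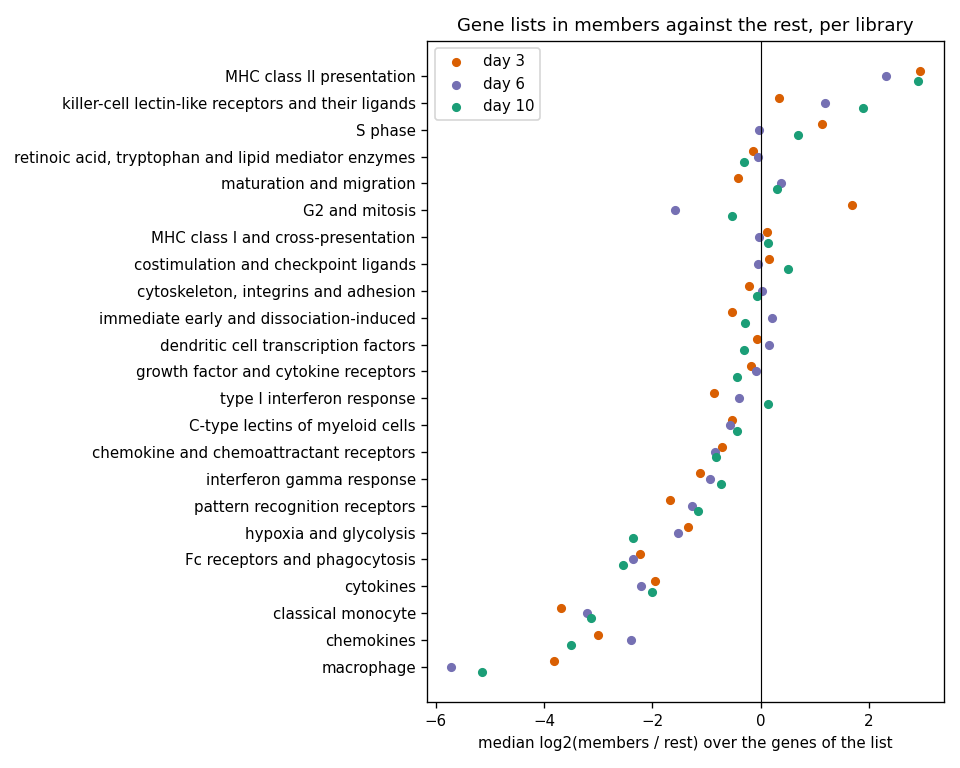
Median log2 ratio of members over the rest for each gene list (horizontal axis), 1 point per day, with the 6 rule genes left out of every list. The class II list lies highest on each day, its medians being 2.95, 2.32 and 2.90, and the macrophage, classical monocyte and chemokine lists lie lowest.

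Because members are deeper, shares of barcodes with a UMI were compared after each barcode had been thinned to 2000 UMIs. Clec10a was then detected in 71.0%, 61.7% and 59.8% of members on days 3, 6 and 10, against 6.09%, 9.91% and 5.32% of the rest. Cd74 was detected in every member, against 49.2%, 48.0% and 39.9% of the rest. Klrk1 was found in 29.9%, 18.7% and 15.2% of members and 2.20%, 1.35% and 0.812% of the rest. Before thinning, Klrk1 was found in 77.6%, 77.6% and 58.5% of members and 8.16%, 6.31% and 3.79% of the rest. The 3 genes therefore differ between the groups at equal depth.

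Between days the members differed in fewer genes than they differed from the rest. For day 10 over day 3, 112 of 6203 genes counted (1.81%) were at least 2-fold higher and 137 (2.21%) at least 2-fold lower. For day 6 over day 3, 190 of 5974 (3.18%) were higher and 105 (1.76%) lower. For day 10 over day 6, 51 of 6416 (0.795%) were higher and 148 (2.31%) lower. These comparisons share libraries, and each is given for itself. The same days can be read in the rest: of the 112 and 137 genes, 36 and 85 were also at least 2-fold higher and lower there on day 10 than on day 3. Over the same genes, 4.76% were higher and 4.37% lower in the rest for day 10 over day 3, 6.66% and 3.5% for day 6 over day 3, and 0.468% and 2.03% for day 10 over day 6. Since the rest was a different mix of clusters on each day, its ratios cannot tell a change within cells from a change of mix.

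Interferon-stimulated genes made up most of the named genes that were lower on day 10 than on day 3. Of the 22 interferon response genes counted, 20 were at least 2-fold lower in members on day 10 than on day 3 and 0 higher, with a median log2 ratio of -1.83, against 0.01 over all genes. In the rest, 22 of the 22 were at least 2-fold lower, with a median of -2.71. Summed over the 24 genes of the list, members had 2736, 1199 and 813 CPM on days 3, 6 and 10, and the rest 5138, 1989 and 827 CPM. The lower summed level on day 10 was thus seen in both groups, and members were below the rest on day 3 and close to it on day 10. In the rest the mix of clusters also differed between these days, so its sums do not show a change within 1 kind of cell. Whether members and rest differ in the lower level cannot be tested with 1 library per day.

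Isg15, a ubiquitin-like protein and a sensitive interferon target, had 405, 126 and 76.1 CPM in members on days 3, 6 and 10, against 897, 219 and 78.6 CPM in the rest. In members it was 5.32-fold (95% interval 4.51 to 6.30) lower on day 10 than on day 3. It was found in 87 of 107, 51 of 107 and 56 of 164 members, and after thinning in 40.2%, 10.3% and 8.54%. Irf7, the factor that amplifies interferon production, had 186, 73.6 and 36.4 CPM in members and was 5.10-fold (95% interval 4.01 to 6.55) lower on day 10 than on day 3. Bst2 (tetherin), which holds budding virus at the membrane, had 544, 220.2 and 197 CPM and was 2.77-fold (95% interval 2.48 to 3.10) lower. The nucleic acid sensor Zbp1 had 147, 44.1 and 42.3 CPM and was 3.48-fold (95% interval 2.76 to 4.43) lower. Ifi204 and Ifi211, of the Ifi200 family of DNA sensors and their relatives, were 3.67-fold and 4.77-fold lower, although members of this family are near-identical and can share UMIs. Oasl2 and Rtp4 were 3.53-fold and 3.03-fold lower. Ly6a (Sca-1), a surface protein that interferon induces, had 581, 223 and 134 CPM in members, against 237, 105 and 42.6 CPM in the rest, so that it stood above the rest on each day while being 4.35-fold lower in members on day 10 than on day 3.

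Interferon-stimulated promoters often carry the element ISRE, bound by transcription factors that interferon activates. The last 120 bases before the start of 2 of the named genes (RefSeq, GRCm38.p6, 5′ to 3′ along the gene) are shown. Both genes were lower on day 10 and were picked because they carry the letters GAAANNGAA, the core of the element, here in capitals.
Isg15 (chr4:156200819-156200938, minus strand): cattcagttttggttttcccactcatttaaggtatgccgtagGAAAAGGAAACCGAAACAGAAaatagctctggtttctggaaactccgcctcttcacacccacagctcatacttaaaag
Ifi211 (chr1:173913047-173913166, minus strand): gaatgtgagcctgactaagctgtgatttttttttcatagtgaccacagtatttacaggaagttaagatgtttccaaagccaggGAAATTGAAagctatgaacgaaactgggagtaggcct
Isg15 held 3 overlapping matches between 78 and 58 bases before the start, and Ifi211 held 1 match from 37 to 29 bases before it. On both strands of the 300-base windows the letters were in 13 of 18 interferon response genes with an entry, or 72.2%, against 8.56% of all 32851 promoters. Again this describes letters and not binding.

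**Figure D4:**
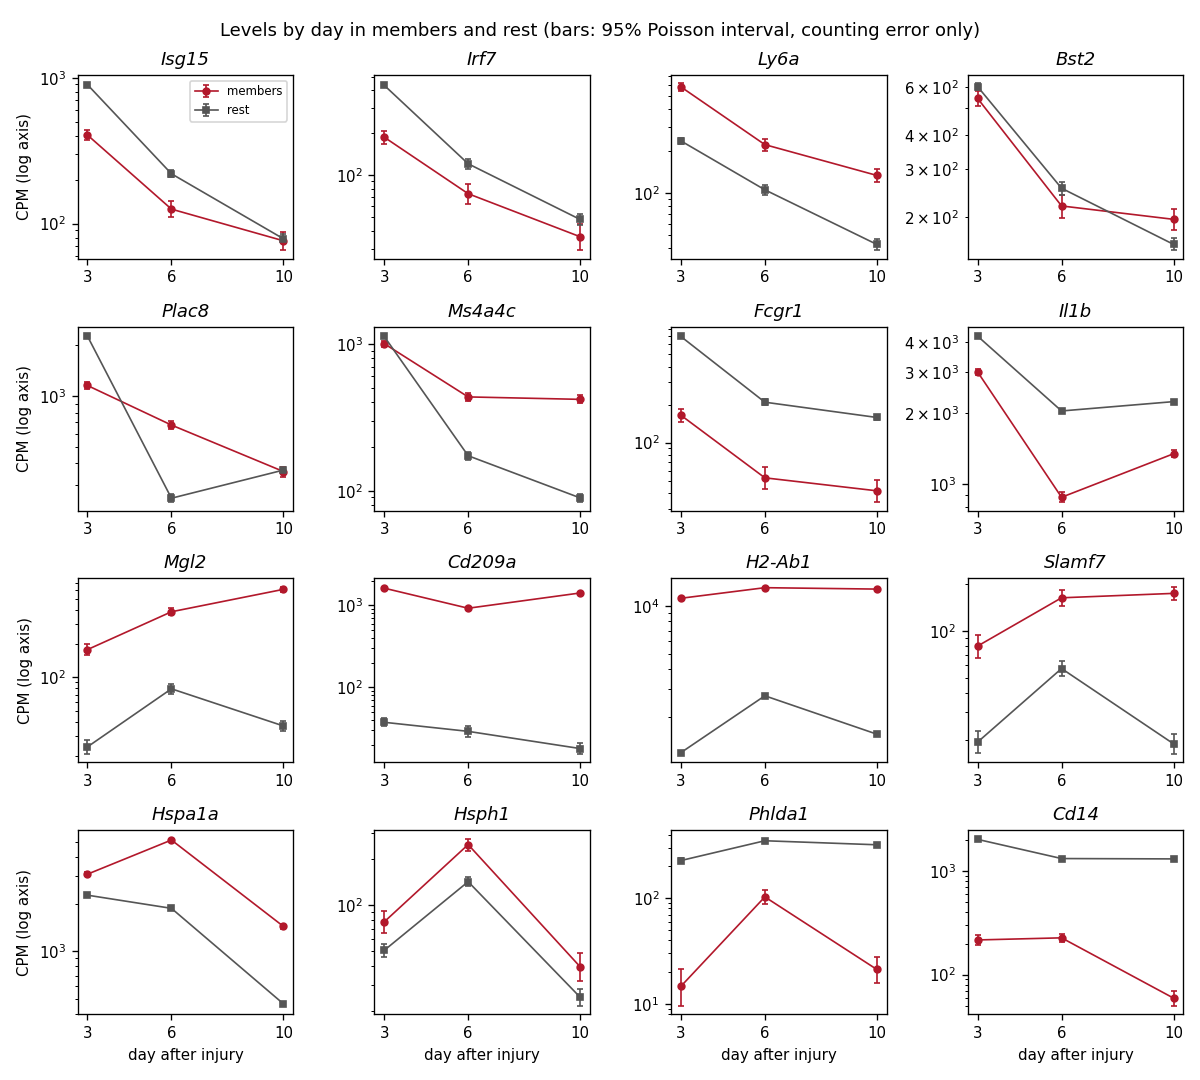
CPM (log axis, each panel with its own range) of 16 genes by day after injury in members (red) and the rest (grey), with 95% Poisson intervals for counting error. Isg15, Irf7, Ly6a, Bst2 and Fcgr1 are lower on each later day in both groups, Mgl2 is higher on each later day in members, and Hspa1a, Hsph1 and Phlda1 are highest on day 6 in members.

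Some genes shared with monocytes were also lower in members on day 10 than on day 3. Of 12 counted genes of the classical monocyte list, 5 were at least 2-fold lower and 1 higher, against 2.21% and 1.81% of all genes, and 6 were within 2-fold. Fn1, the matrix protein fibronectin, was the higher one, with 33.2, 70.4 and 79.9 CPM in members, against 1249.9, 1933 and 2418 CPM in the rest. Plac8, abundant in monocytes, had 1156, 675 and 358 CPM in members, against 2266, 249 and 365 CPM in the rest, and was 3.23-fold (95% interval 2.98 to 3.50) lower in members on day 10 than on day 3. Ms4a4c, a membrane protein of Ly6c-high monocytes, had 1003, 435 and 419 CPM in members, against 1125, 173 and 89.4 CPM in the rest, so members came to stand 4.69-fold above the rest on day 10. Ly6c2 was low throughout, with 59.1, 6.83 and 11.0 CPM in members, against 685, 78.5 and 86.9 CPM in the rest. Fcgr1 (CD64), a high-affinity receptor for antibody used to tell macrophages from dendritic cells, had 165, 52.5 and 41.5 CPM in members, against 693, 209 and 158 CPM in the rest. Cd14, the endotoxin co-receptor, gave 217, 227 and 59.2 CPM in members, against 2037, 1328 and 1318 CPM in the rest, and was 3.66-fold lower in members on day 10 than on day 3. Cd14 was within 2-fold when 20% of barcodes were taken as members or when the score left out Cd209a. Summed over the 11 monocyte markers, members had 2996, 1928 and 1667 CPM on days 3, 6 and 10, and the part that such cells have in these differences was not tested.

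Mgl2 (CD301b), a lectin of type 2 dermal dendritic cells in the mouse, was the named gene with the largest ratio of day 10 over day 3. It had 177 CPM (158 to 197), 385 CPM (357 to 414) and 609.9 CPM (579 to 642) in members on days 3, 6 and 10, with 95% Poisson intervals in parentheses. In the rest it had 23.9, 78.9 and 36.7 CPM, highest on day 6. The ratio in members was 3.45-fold (95% interval 3.05 to 3.91) for day 10 over day 3, and in the rest 1.54-fold (95% interval 1.29 to 1.84). A UMI of it was found in 33 of 107, 43 of 107 and 86 of 164 members on days 3, 6 and 10, and after thinning in 15.9%, 21.5% and 37.2%. One member held 16.6% of the Mgl2 UMIs of day 3, and 5.48% on day 10. The closely related Clec10a had 844, 827 and 717 CPM and stayed within 2-fold between all pairs of days, and Clec4b1 had 138, 220.2 and 246 CPM.

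Other named genes higher on day 10 had smaller ratios. Slamf7, a self-binding receptor of the SLAM family, had 79.9, 163 and 174 CPM in members, against 19.4, 57.4 and 18.9 CPM in the rest, and was 2.18-fold (95% interval 1.79 to 2.65) higher in members on day 10 than on day 3. Hfe, which tunes iron uptake, had 101, 143 and 207 CPM in members and Trf, the iron carrier transferrin, 79.9, 140.3 and 156 CPM. Tmem176a, a membrane protein found in dendritic cells, had 387, 579.6 and 699.6 CPM. Rbpj, the nuclear partner of Notch, had 109.7, 205 and 195 CPM and Marcks, which links membrane and actin, 100.1, 179 and 182 CPM. The lipid transfer protein Pltp had 144, 277 and 267 CPM. For Trf, Pltp, Lbh, Marcks, Tmem176a and Rbpj the fold was under 2, between 1.78 and 1.95. Fnbp1, Hfe and Mpp6 stood at 2.12, 2.05 and 2.02-fold, and came under 2-fold in some alternatives. Fabp5, a fatty acid carrier, had 105, 86.2 and 237 CPM in members, of which 1 barcode held 36.0% on day 6 and 19.8% on day 10. Its log2 ratio of day 10 over day 3 was 1.18, but 0.18 with the top 10% as members, 0.28 with the top 20% and 0.40 with at least 5000 UMIs.

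**Figure D5:**
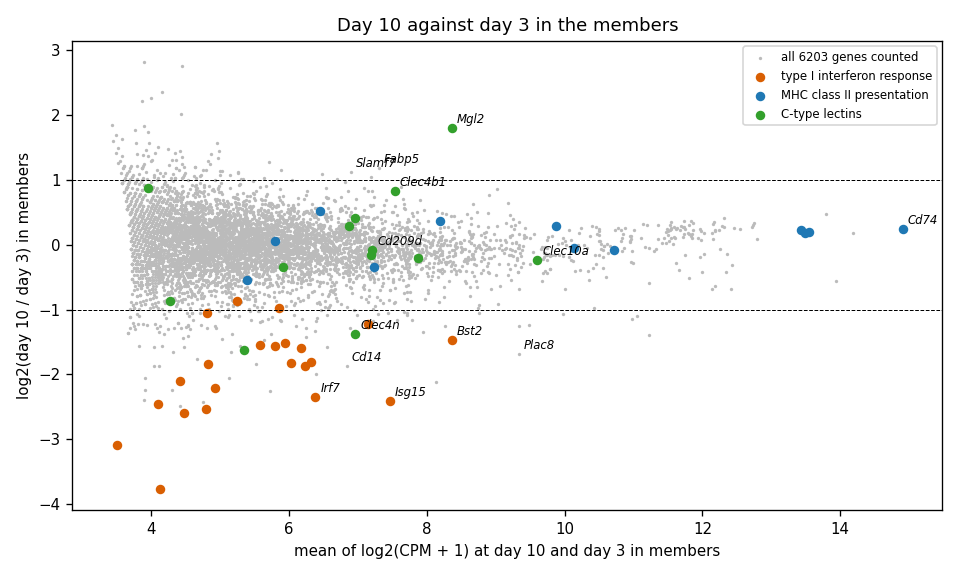
Each point is 1 of the 6203 genes counted in members, with its mean level at day 10 and day 3 (horizontal axis, log2(CPM + 1)) and its log2 ratio of day 10 over day 3 (vertical axis); dashed lines mark 2-fold. Interferon response genes (orange) lie below 0, 20 of 22 past 2-fold, class II genes (blue) lie near 0, and Mgl2 stands highest among the C-type lectins (green).

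No counted class II gene was past 2-fold in members between any pair of days, which, beside 0.795% to 3.18% of all genes in each direction, is no result about this list. For day 10 over day 3 the median log2 ratio of the 12 counted genes was 0.19, for day 6 over day 3 0.28 and for day 10 over day 6 -0.09, with 0 of 12 past 2-fold each time. In the rest, 5 of 12 were at least 2-fold higher on day 6 than on day 3. The 25% of members with the least H2-Ab1 differed more between days than the median did: the lower quartile was 66.8, 115 and 108 UMIs per 10000 on days 3, 6 and 10, and the median 119, 129 and 129. Ccr2 was found on days 3, 6 and 10 in 57.0%, 54.2% and 67.7% of members after thinning, against 69.3%, 31.1% and 35.1% of the rest.

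Several heat shock genes were highest on day 6 in members, but most of the wider list was within 2-fold. Of 26 immediate early and dissociation-induced genes, 3 were at least 2-fold higher on day 6 than on day 3 and 0 lower, against 3.18% and 1.76% of all genes. For day 10 over day 6, 0 were higher and 6 lower, against 0.795% and 2.31%. Dnaja1, a chaperone partner, had 474, 329 and 198 CPM in members, against 301, 260.05 and 161 CPM in the rest, highest on day 3. Hspa1a, an inducible chaperone, had 3098, 5115 and 1439.8 CPM in members, against 2278, 1878 and 462 CPM in the rest, and in members was 1.65-fold higher on day 6 than on day 3. Its near-identical copy Hspa1b had 1930.3, 3536 and 986 CPM in members, and UMIs can be shared between both. Hsph1, a co-chaperone, had 77.6, 251 and 39.3 CPM in members, against 50.4, 143 and 24.8 CPM in the rest, and in members was 3.23-fold (95% interval 2.67 to 3.93) higher on day 6 than on day 3 and 6.37-fold lower on day 10 than on day 6. Tsc22d3, induced by glucocorticoids, had 159.7, 238 and 53.3 CPM in members, against 139.8, 265 and 56.7 CPM in the rest. Heat shock and immediate early genes respond to enzymatic digestion as well as to the wound, and since each day is 1 preparation, day and preparation cannot be told apart. Apoe, abundant in macrophages, had 37.1, 139.8 and 60.1 CPM in members, but 1 barcode held 44.0% of it on day 6, and its direction turned when 10% of barcodes were taken, the log2 ratio of day 6 over day 3 being 1.91 and then -0.12. Phlda1 had 14.6, 103 and 21.1 CPM in members on days 3, 6 and 10, from 15, 34 and 22 barcodes. Fgfr1, a growth factor receptor, had 25.3, 109 and 55.0 CPM from 18, 66 and 60 barcodes. Pdcd4 and Id2 were 2.98-fold and 2.84-fold higher in members on day 6 than on day 3, and the rest stood at 2.12-fold and 2.16-fold.

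Il1b was the most lowered named gene of day 6 against day 3. It had 2995 CPM (2915 to 3077), 882 CPM (841 to 925) and 1348 CPM (1302 to 1396) in members on days 3, 6 and 10, and 4243, 2046 and 2241 CPM in the rest. It was 3.39-fold (95% interval 3.21 to 3.59) lower in members on day 6 than on day 3, and 2.07-fold (95% interval 2.03 to 2.12) lower in the rest. A UMI of Il1b was found in 73.8%, 39.3% and 45.1% of members after thinning. Genes higher on day 10 than on day 6 included Tmsb10, which binds free actin, with 4270.1, 2019.8 and 3748 CPM in members, and Psme2, part of the interferon-responsive proteasome activator, with 214, 104 and 195 CPM. Nme1, a nucleotide kinase, had 255, 116 and 206 CPM. These 3 were lowest on day 6 in members. Lst1, a small myeloid membrane protein, had 166, 75.7 and 138 CPM and Uqcc2, an assembly factor of respiratory complex III, 130.5, 90.4 and 157 CPM. Slc5a3, an inositol transporter, had 42.2, 109.8 and 27.9 CPM and the interferon-induced Xaf1 102, 37.3 and 36.0 CPM.

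Barcodes outside the members differed from them to unequal degrees, and a few members stood apart from most. The 74 barcodes that clustered with most members but scored too low had a median of 11305 UMIs, against 16044 in the 359 members of that cluster. Summed, those 359 members had 12535 CPM of H2-Ab1, and the 74 barcodes 10847 CPM. Cd209a stood at 1342 and 312 CPM, Mgl2 at 407 and 368 CPM, Ly6c2 at 24.3 and 202 CPM and Lyz2 at 1043 and 3745 CPM in the members and the 74 barcodes. Comparing all members with the non-members of each cluster over 10488 genes, 152 genes lay at least 2-fold apart for the 74 barcodes. The next lowest count was 805, for a cluster led by S100a9 and Lcn2, and a cluster led by Retnla and Lyz1 had 915. The mature cluster led by Fscn1 had 1950, and its 4 members had 1963 CPM of Ccr7 and 38.5 CPM of Cd209a. The non-members compared held 894176, 2622112, 578963 and 213408 UMIs, in the order given. Counting error puts more genes past 2-fold in a smaller sum, so these counts do not rank the groups by likeness. Cycling was rare: 2 of 107, 1 of 107 and 4 of 164 members had at least 10 UMIs of 25 mitotic genes on days 3, 6 and 10, against 3 of 772, 17 of 444 and 13 of 1108 barcodes of the rest. These shares were 1.87%, 0.935% and 2.44% of members, with intervals that all overlap.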

How the data were processed

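The deposited files hold raw UMI counts per gene and barcode, made with Cell Ranger 3.0.2 against mm10 per the submitters' processing notes; no source used here gives the annotation release. The isolation and the pooling of 2 mice per day are as the labels' protocols state them. Each library was 1 sample, read from 31053 gene identifiers. Library totals were 11199361, 9273960 and 13972817 UMIs on days 3, 6 and 10.

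Members were chosen as described above. The members, gene lists and rules were chosen with earlier results of these data known. UMIs were summed over members and over the rest of each library and scaled to CPM, and ratios were formed with a floor of 3 UMIs and a minimum of 50 UMIs over both sides. CPM carry exact Poisson intervals, ratios exact conditional binomial intervals and shares Clopper-Pearson intervals, all at 95% and for counting error only; UMIs of 1 barcode are treated as independent. Clusters used 2000 variable genes without the 6 rule genes, 30 components, 15 neighbours and Leiden at a resolution of 0.8 (leidenalg 0.10.2), on values processed with scanpy 1.11.5. Doublets were called with Scrublet.

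Named genes were those with the largest ratios and at least 100 CPM on 1 side: 15 higher and 10 lower against the rest by the worst day, 12 each way for day 10 over day 3 and 6 each way for the other pairs. Mitochondrial, ribosomal, model and rule genes were left out, and some genes are not reported here. Up to 4 members of each list with the largest ratios each way, and members with a known role in dendritic cells, were added. Ratios were checked on simulated counts. Alternatives covered the share taken, depth, mitochondrial limit, thinned scores, genes of the score, doublets, clusters, scaling factors of edgeR 4.0.16 (TMM and median of ratios) and the count minimum. Promoters were matched by symbol to RefSeq windows of GRCm38.p6, the assembly that mm10 names.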

Additional observations from a re-analysis of the deposited data

Results flagged for a closer look

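Fabp5 went in opposite directions in members and in the rest between days 6 and 10, a difference between groups that was not tested. Its log2 ratio of day 10 over day 6 was 1.46 in members and -0.54 in the rest. One member held 36.0% of its UMIs on day 6, and with a score without Klrd1, Klrb1b and Cd7 the ratio in members was -0.43. Nme1 also went in opposite directions, with a log2 ratio of 0.83 in members and -0.14 in the rest, also not tested.

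Barcodes outside the analysis held a signal of the same genes. Of 437 barcodes of day 6 that had at least 2000 UMIs but were left out for their mitochondrial share, 8 scored at or above the lowest member, or 1.83% (95% Clopper-Pearson interval 0.794 to 3.58%). On day 3 this was 1 of 379 and on day 10 it was 2 of 411.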

How the results depend on the processing

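No paired analysis was possible because each day has 1 library, so no replicate block or replicate left out could be fitted. The share of members was 8.99%, 13.97% and 8.96% on days 3, 6 and 10 when the top 10% were taken and 17.3%, 28.1% and 18.3% when the top 20% were taken, with day 6 highest each time. The part of members in dendritic-cell-like clusters was 99.3% for the top 10%, 80.7% for the top 20%, 98.7% with at least 5000 UMIs, 92.1% with a mitochondrial limit of 20%, 92.9% with scores after thinning and 93.4% with a score without Klrd1, Klrb1b and Cd7. Counts of genes past 2-fold moved with the count minimum. With at least 20 UMIs they were 338 higher and 256 lower for day 10 over day 3, 500 and 227 for day 6 over day 3, and 169 and 316 for day 10 over day 6. With at least 200 UMIs they were 9 and 56, 28 and 43, and 3 and 43, and 117 and 415 for members over the rest. With no minimum they were 623 and 470, 857 and 413, and 332 and 621, and 1628 were higher in members than in the rest. Of 829 gene ratios, those past 2-fold changed sign under an alternative in 9 values in all. The log2 ratio of Apoe for day 6 over day 3 was -0.12 with the top 10% and -0.77 with thinned scores, and for day 10 over day 6 it was 0.94, 0.40 (top 20%) and 1.08. Cxcl2 for day 6 over day 3 was -0.31 with at least 5000 UMIs and -0.089 without Klrd1, Klrb1b and Cd7, and for day 10 over day 6 0.25 without Cd209a. Fabp5 for day 10 over day 6 was -0.43 without Klrd1, Klrb1b and Cd7. The cause was not tested. Leaving out the member with most UMIs of a gene, an alternative chosen after seeing the data, moved Fabp5 for day 10 over day 3 from 1.18 to 0.99 and Apoe for day 10 over day 6 from -1.22 to -0.61. No list median past 2-fold changed sign. TMM moved ratios of members over the rest by up to 0.18 on the log2 scale, and thinned scores kept 89.9% of the members.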

Other observations

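Some genes better known from lymphocytes were higher in members and others were lower; those below were picked after their values were seen. Cst7, an inhibitor of lysosomal proteases, had 87.7, 44.7 and 59.6 CPM in members, against 3.14, 1.32 and 2.49 CPM in the rest. Itgb7, an integrin chain of gut-homing lymphocytes, gave 381, 354 and 294 CPM in members, against 120.3, 69.4 and 61.0 CPM in the rest. Btla, an inhibitory receptor of lymphocytes and dendritic cells, had 12.9, 29.4 and 16.1 CPM in members, against 4.78, 1.51 and 0.415 CPM in the rest, from few UMIs. Spib, a transcription factor of B cells and plasmacytoid dendritic cells, had 42 UMIs in members and 6 in the rest. The immunoglobulin heavy chain Ighm gave 106, 94.1 and 135 CPM in members, against 57.2, 31.1 and 27.4 CPM in the rest, while Cd79a, which B cells need beside it, had 1 and 5 UMIs, and Cd79b 6.75, 4.204 and 5.92 CPM in members, against 5.03, 9.06 and 9.24 CPM in the rest. Lower in members was Il7r, the interleukin-7 receptor of lymphocytes, with 44.4, 31.0 and 30.5 CPM in members, against 70.0, 179 and 104 CPM in the rest. Rora, a factor of innate lymphoid cells, had 1.12, 8.41 and 1.27 CPM in members, against 3.27, 21.3 and 27.3 CPM in the rest, and Il2rb had 0 UMIs in members and 37 in the rest. Smim5, a small membrane protein of the plasmacytoid marker list, had 32.6, 26.8 and 40.6 CPM in members, against 3.65, 5.28 and 4.36 CPM in the rest. The epithelial adhesion protein Cdh1, of the Langerhans cell marker list, had 42.2, 53.1 and 30.03 CPM in members, against 3.65, 13.6 and 3.74 CPM in the rest. Cd207, of the same list, had 0 UMIs in members.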
